A study of Mus musculus with 54 samples.

Results

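Kinase genes of 2 families were measured across Ba/F3-gp130 cells. Hipk1, Hipk2 and Hipk3 encode homeodomain-interacting protein kinases, and Prkd1, Prkd2 and Prkd3 encode protein kinase D enzymes. They were 6 of 19938 genes measured, and each was read by 1 gene-level probe set (a group of array probes that together report 1 gene). At exon level they had 113 of the 212097 probe sets that carry a single gene symbol. The genes were selected on measured values, because members of both families stood higher in the receptor-bearing lines than in the parental line. Differences of these 6 genes between lines are therefore given as a description, with no test, and for them only the responses to stimulation were tested. Genes of 4 lists around the 2 families were tested between lines as well. These lists were drawn up with earlier results of the same data known, so their p-values are not independent of that choice.

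Ba/F3-gp130 is a mouse pro-B cell line that carries gp130, the shared signalling chain of interleukin-6 type receptors. It needs Hyper-IL-6, in which interleukin-6 is fused to its soluble receptor, to grow. Of the 4 lines, the parental one was untransfected, and CIR-1, CIR-2 and CIR-3 carried Cargo Internalization Receptor constructs, 1 per line. Each line was measured unstimulated and after 1 h of GFP-PFC at 50 µl per ml, an emulsion of perfluorocarbon named with green fluorescent protein. A further parental group had 1 h of Hyper-IL-6 at 100 ng/ml. All cells had been washed free of cytokine in PBS and held in serum-free DMEM for 3 h, so the unstimulated groups were starved cells too. The 9 groups held 3 arrays each, 27 in all. The labels do not say whether a CIR line was 1 clone or a pool, name no arm with liquid free of emulsion, and do not state that a group's 3 arrays were separate cultures. The p-values therefore measure only the spread between these arrays. Unstimulated arrays carried the numbers 1, 3 and 5 and stimulated arrays the numbers 2, 4 and 6.

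Homeodomain-interacting protein kinases are nuclear serine/threonine kinases that phosphorylate transcription factors and co-repressors. Hipk2 is best known for phosphorylating p53 after DNA damage, and its protein is kept low by SIAH ubiquitin ligases. Protein kinase D enzymes are serine/threonine kinases that bind diacylglycerol, are activated by protein kinase C, and act on class II histone deacetylases, on vesicle budding at the Golgi and on actin regulators. Prkd2 is the form most often described in lymphocytes.

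Values were read as log2 signals (the labels give no log base), so a difference of 1 is a doubling of signal. Array medians lay between 7.52 and 7.65, and the lower quartile of an array lay between 6.22 and 6.31. A mean below that quartile was not shown to lie above background. Of 15 pro-B and B cell markers measured, 10 exceeded the quartile in at least 1 group. Among them Cd79a, a signalling chain of the B cell receptor, had group means from 9.52 to 10.09, whereas Ebf1, an early B cell transcription factor, stayed between 5.83 and 5.98. Signal levels of different genes depend on their probes and are not ranked against each other.

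Hipk2 was higher in all 3 CIR lines than in parental cells, and the lines formed a ladder. In unstimulated parental cells the 3 arrays read 8.32, 7.90 and 8.20. They read 9.74, 9.70 and 9.40 in CIR-1. They read 10.53, 10.49 and 10.58 in CIR-2. They read 8.68, 8.88 and 8.67 in CIR-3. No array of any line overlapped one of another line, in the order CIR-2, CIR-1, CIR-3 and parental from high to low. The difference from parental cells was 2.40 (SE 0.11, 5.27-fold) in CIR-2, 1.47 (SE 0.11, 2.78-fold) in CIR-1 and 0.61 (SE 0.11, 1.52-fold) in CIR-3, each of 3 arrays against 3.

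The same ladder stood in the GFP-PFC arrays of the same lines. Those arrays were also among the values on which the genes were selected, so they are not an independent check. Parental arrays read 8.23, 8.07 and 8.31, and CIR-3 arrays read 8.64, 8.82 and 8.64. CIR-1 arrays read 9.50, 9.77 and 9.53, and CIR-2 arrays read 10.62, 10.53 and 10.64. The differences from parental GFP-PFC cells were 2.39 (CIR-2), 1.39 (CIR-1) and 0.50 (CIR-3). Between the CIR lines, CIR-2 exceeded CIR-1 by 0.92 unstimulated and 0.99 with GFP-PFC, and CIR-3 minus CIR-1 was -0.87 and -0.90. Parental cells with Hyper-IL-6 read 8.21, 8.43 and 8.19, within the range of the other parental arrays apart from the 8.43.

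Prkd3 was also higher in all 3 CIR lines, in a different order. Unstimulated parental arrays read 6.61, 6.77 and 7.01. CIR-1 arrays read 8.00, 7.98 and 7.97. CIR-2 arrays read 7.70, 7.96 and 7.86, just under CIR-1. CIR-3 arrays read 8.39, 8.68 and 8.38, above every array of the other lines. The differences from parental cells were 1.68 (SE 0.13, 3.21-fold) in CIR-3, 1.18 (SE 0.13, 2.27-fold) in CIR-1 and 1.04 (SE 0.13, 2.06-fold) in CIR-2. In CIR-2 the difference lay close to 1, at 0.95 without parental unstimulated array 1 and at 0.98 without CIR-2 unstimulated array 3.

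In GFP-PFC cells the Prkd3 differences were 1.78 in CIR-3, 1.44 in CIR-1 and 1.18 in CIR-2. Parental arrays read 6.68, 6.65 and 6.79, below all CIR arrays. CIR-1 read 7.79, 8.30 and 8.34, CIR-2 read 7.71, 7.90 and 8.05, and CIR-3 read 8.50, 8.69 and 8.27. CIR-1 thus overlapped both CIR-2 and CIR-3 here, and the neighbours CIR-1 and CIR-2 differed by 0.26 (95% confidence interval of CIR-2 minus CIR-1 -0.53 to 0.02). Unstimulated, CIR-2 minus CIR-1 was -0.14, with an interval from -0.42 to 0.14. Over the 9 group means Hipk2 and Prkd3 had a Pearson correlation of 0.495, since CIR-2 was highest in the first and CIR-3 in the second. Those 9 points share 4 lines.

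**Figure D1:**
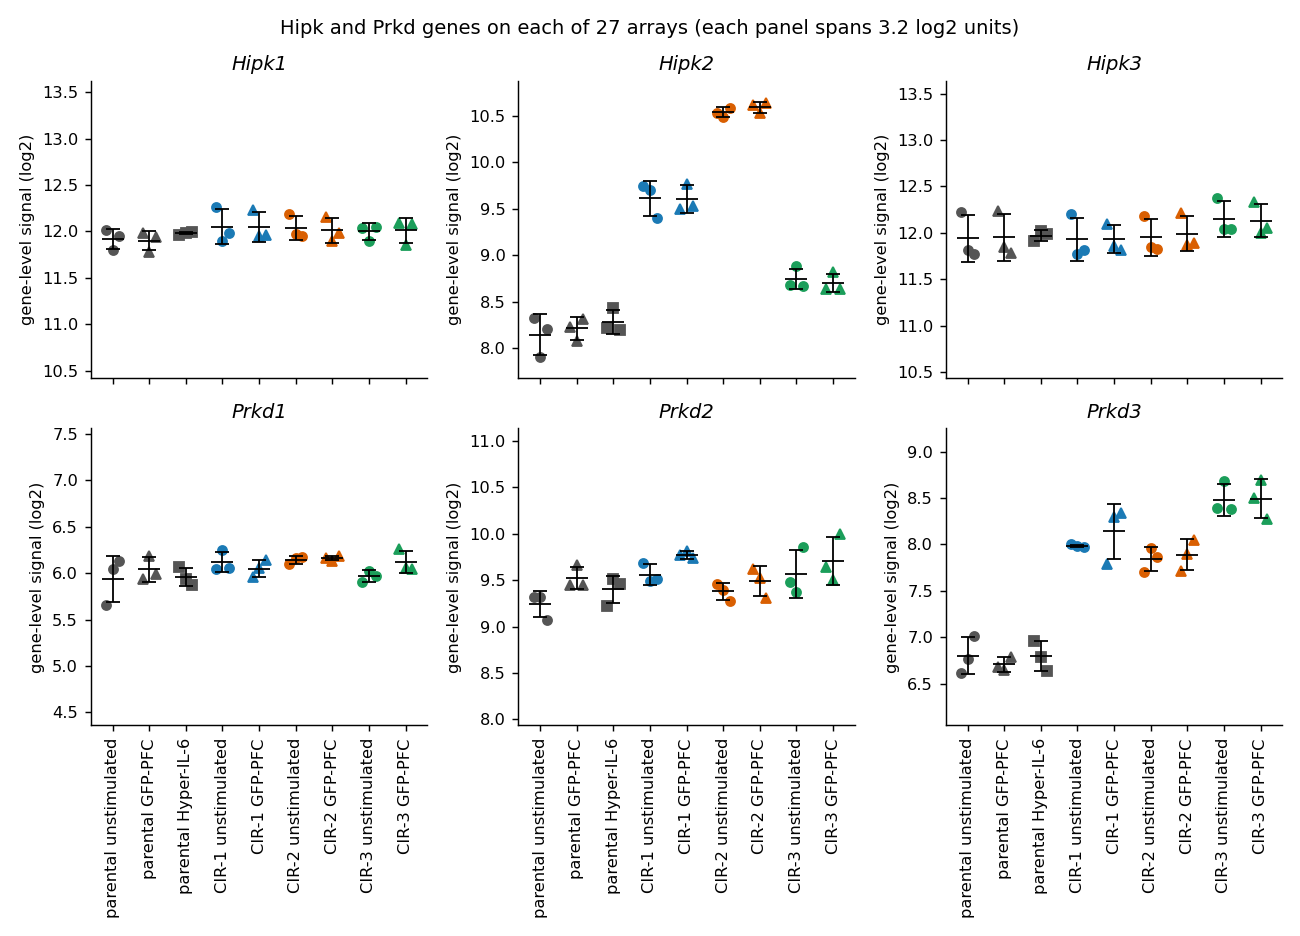
Gene-level log2 signal of the 6 kinase genes on each of 27 arrays, by group (circles unstimulated, triangles GFP-PFC, squares Hyper-IL-6; grey parental, blue CIR-1, orange CIR-2, green CIR-3). Black bars give the mean and SD of 3 arrays. Every panel spans the same length of scale. Hipk2 steps up from parental means of 8.14 to 8.28 to CIR-2 means of 10.54 and 10.59, Prkd3 steps from at most 6.80 to at least 7.84, and the other genes stay within 0.54.

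Prkd2 differed little between lines. Unstimulated parental arrays read 9.32, 9.32 and 9.07, and CIR-1 read 9.69, 9.49 and 9.51. CIR-2 read 9.46, 9.39 and 9.28, and CIR-3 read 9.48, 9.37 and 9.86. The differences from parental cells were 0.33 for CIR-1, 0.14 for CIR-2 and 0.33 for CIR-3 (SE 0.12 each), and the arrays of CIR-1 and CIR-3 lay above the parental ones while those of CIR-2 overlapped them. With GFP-PFC the same differences were 0.25, -0.04 and 0.19, and only the CIR-1 arrays lay apart from parental ones.

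Hipk1 and Hipk3 were bright and nearly level. Group means ran from 11.90 (parental GFP-PFC) to 12.05 (CIR-1) for Hipk1 and from 11.93 to 12.15 (CIR-3) for Hipk3, both near the 93.2 percentile of all genes by mean signal. Their arrays overlapped between parental cells and every CIR line. Within groups these genes moved with the array number. All 8 arrays numbered 1 or 2, leaving out Hyper-IL-6, lay above their group mean, by 0.12 on average for Hipk1 and 0.24 for Hipk3. The mean deviation of those arrays was between -0.12 and 0.03 for the other members. Prkd1 had group means from 5.94 to 6.16, under the lower quartile in all 9 groups, so its gene-level signal was not shown to lie above background. At exon level some of its probe sets were brighter in every group, with means of 10.33 to 10.56 at 10400188 and 8.30 to 8.61 at 10400182.

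Of the 6 genes 2 were higher by 1 or more in CIR-1 (0.135% of all genes), 2 in CIR-2 (0.171%) and 1 in CIR-3 (0.206%), unstimulated. With GFP-PFC the counts were again 2, 2 and 1, beside 0.135%, 0.191% and 0.196% of all genes. The 3 arrays lay wholly above the 3 parental ones for 3, 2 and 3 members unstimulated (4.77%, 4.74% and 4.97% of all genes) and for 3, 2 and 2 with GFP-PFC (7.25%, 7.27% and 5.98%). Since the genes were selected on these differences, nothing is read from the counts. None of the 6 genes was lower by 1 or more in any CIR line. The median difference of the 6 unstimulated was 0.25, 0.17 and 0.27, beside medians over all genes of 0.00, -0.01 and -0.02. In unstimulated cells the number of genes with a larger difference than Hipk2 was 10 in CIR-1, 4 in CIR-2, but 106 in CIR-3 (14, 5 and 144 with GFP-PFC). For Prkd3 it was 18, 30 and 12 (13, 28 and 12 with GFP-PFC).

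Markers of other blood cell types also differed between these lines. Of 9 mast cell and basophil markers, 7 exceeded the lower quartile in some group, and the mean over the list was 7.81 to 7.91 in parental groups and 7.26 to 7.39 in CIR groups. Fcer1a, the IgE-binding chain of the high-affinity IgE receptor, had means of 9.09, 9.37 and 8.66 in parental groups and between 4.87 and 5.15 in every CIR group. Hdc, which makes histamine, was also lower there (at most 7.95, against 8.32 to 8.63). Other members of the list did not fall, since Gata2, a blood transcription factor, had means of 13.03 to 13.10 in parental and 13.32 to 13.46 in CIR groups. Ms4a2, another chain of the same IgE receptor, read 7.80 in unstimulated parental cells and 8.10 (CIR-1), 8.18 (CIR-2) and 8.40 (CIR-3). The proteases Cpa3 and Cma1 stayed under the quartile in all groups. The list of erythroid and megakaryocyte markers (5 of 6 above the quartile) averaged 9.58 to 9.61 in parental groups and 9.71 to 9.92 in CIR groups, while the pro-B and B cell list stayed between 7.15 and 7.22. The neutrophil and monocyte list (8 of 10 above the quartile) ran from 7.59 to 7.87 over the groups and the T cell list (6 of 7) from 6.95 to 7.09. Within the former, Mpo, the myeloperoxidase of granules, had means of 10.42 to 10.52 in parental groups. They were 8.87 to 8.91 in the groups of CIR-1 and CIR-2, and 11.40 and 11.43 in those of CIR-3. The part of these marker differences in the Hipk2 and Prkd3 differences was not tested. In bulk RNA, a higher share of cells with a transcript and more transcript per cell cannot be told apart.

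The genes whose 9 group means ran most like those of Hipk2, among 209 others spanning at least 1, were 3830403N18Rik (Pearson r = 0.9863), S100a4 (0.9597) and Sgms1 (0.9585). 3830403N18Rik rose from 5.46 in unstimulated parental cells to 6.65 in CIR-3, 7.69 in CIR-1 and 10.39 in CIR-2. Its parental level lay under the lower quartile, so it was not shown to exceed background. S100a4, a calcium-binding S100 protein, read 7.40, 7.51, 7.82 and 8.50 in the same order, and Sgms1, a sphingomyelin synthase, read 7.33, 7.85, 8.21 and 8.53. For Prkd3 they were Ap1m2 (0.9778), Hspa2 (0.971) and F5 (0.9693). Hspa2, a heat shock protein of the Hsp70 family, had a parental mean of 8.74 and means of 9.56 (CIR-1), 9.61 (CIR-2) and 10.24 (CIR-3). F5, coagulation factor V, read 6.51, 8.30, 7.51 and 8.73, and Ap1m2, a clathrin adaptor subunit, read 7.18, 8.10, 8.07 and 8.34. These correlations rest on 9 group means from 4 lines and were chosen as the highest, so they carry no p-value.

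The promoters of the 2 genes that were raised together are shown for comparison, as 250 bases before the first listed start (RefSeq, GRCm38.p6, minus strand for both). The Hipk2 stretch is chr6:38876191-38876440 and the Prkd3 stretch is chr17:79020817-79021066. Capitals mark matches to the GC box letters GGGCGG on either strand, the motif of the general transcription factor Sp1, and matches may overlap each other.
Hipk2: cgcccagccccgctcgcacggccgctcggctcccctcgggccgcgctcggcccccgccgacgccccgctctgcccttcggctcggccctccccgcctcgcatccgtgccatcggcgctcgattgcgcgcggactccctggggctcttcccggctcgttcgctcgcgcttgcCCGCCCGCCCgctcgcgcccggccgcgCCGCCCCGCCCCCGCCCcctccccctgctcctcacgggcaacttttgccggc
Prkd3: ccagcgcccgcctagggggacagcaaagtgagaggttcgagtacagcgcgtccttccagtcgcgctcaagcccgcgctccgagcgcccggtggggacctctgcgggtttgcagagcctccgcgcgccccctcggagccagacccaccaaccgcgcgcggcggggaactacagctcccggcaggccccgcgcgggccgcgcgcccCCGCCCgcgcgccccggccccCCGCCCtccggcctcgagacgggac

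Both stretches were rich in G and C, at 80.8% and 77.6%, which is the 99.1 and the 97.9 percentile of 32851 promoter stretches of the same length. Hipk2 had 5 GC boxes and Prkd3 had 2, and 32.7% of all stretches had at least 1. The other members of the families had them as well, with 6 in Prkd1, 2 in Hipk3 and 2 and 3 at the 2 listed starts of Prkd2, but none at either start of Hipk1. Neither printed stretch held the STAT letters TTCNNNGAA (in 7.02% of all stretches), the AP-1 letters TGANTCA (6.75%), the E-box letters CACGTG (6.02%) or the cyclic AMP element TGACGTCA (1.55%), on either strand. RefSeq listed a second start for each of these genes. The STAT letters occurred once at the second start of Prkd3, at chr17:79008506-79008755, where 40.8% of bases were G or C, and none of the 5 motifs occurred at the second start of Hipk2. These matches are letters in a window and not measured binding.

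At exon level, most of Hipk2 followed the gene-level ladder. Of its 18 probe sets, 13 were higher by 1 or more in CIR-1 (0.58% of all exon-level probe sets), 15 in CIR-2 (0.644%) and 4 in CIR-3 (0.754%), unstimulated. With GFP-PFC the counts were 14, 15 and 1, beside 0.579%, 0.616% and 0.625%. The single one in CIR-3 became 2 without parental GFP-PFC array 2, CIR-3 GFP-PFC array 2 or CIR-3 GFP-PFC array 6. The order CIR-2, CIR-1, CIR-3 from large to small differences held at 18 of 18 probe sets unstimulated and at 18 of 18 with GFP-PFC, those with overlapping arrays included. Among them 10544115 was not raised and 10544131 was under the exon-level lower quartile in all groups, so the order at these shows no rise.

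Among probe sets with a parental mean above the exon-level lower quartile (6.65 to 6.74 by array), 10544128 read 7.03 in unstimulated parental cells. It read 8.42 in CIR-3, 9.66 in CIR-1 and 10.69 in CIR-2, differences of 1.39, 2.63 and 3.66. Probe set 10544126 differed by 1.39, 2.40 and 3.56 in that order, from a parental 7.07. At 10544124 CIR-2 read 10.19, against a parental mean of 6.29 that lay under the quartile and so was not shown to exceed background. At the low end, 10544115 was bright in every line and was not raised. It read 11.37 in parental cells and 11.26 (CIR-1), 11.40 (CIR-2) and 11.06 (CIR-3), and the arrays of each line overlapped the parental ones. Probe set 10544131 stayed under the quartile, with means of 5.74, 5.16, 5.87 and 5.14, so its differences have no interpretation. Probe set 10544118 was in between, at 0.42, 0.83 and 0.09. Counted as 3 arrays wholly above the 3 parental ones, unstimulated, the rise covered 16 of 18 probe sets in CIR-1 and in CIR-2, and 11 in CIR-3. The share of all exon-level probe sets with arrays apart in this way was not computed.

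**Figure D2:**
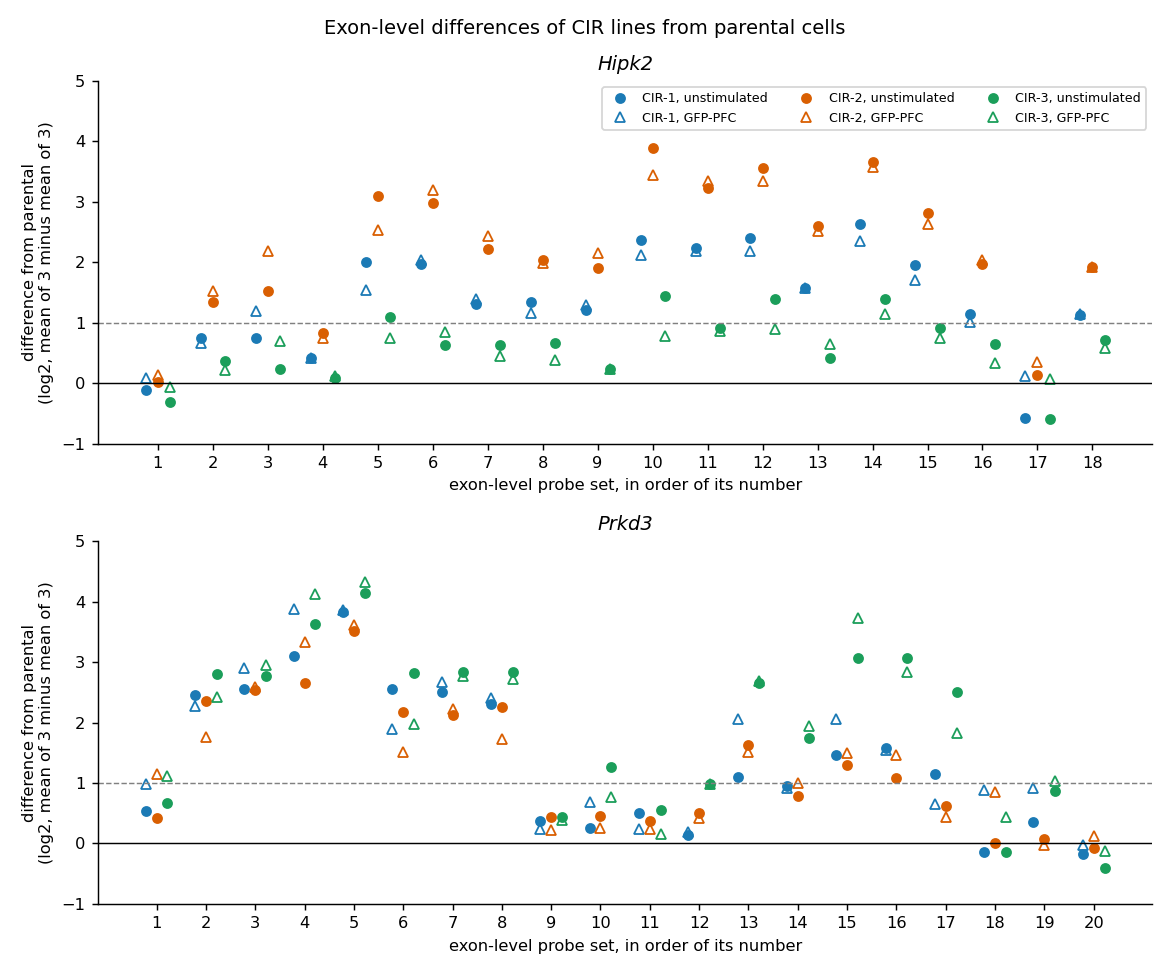
Difference of each CIR line from parental cells at every exon-level probe set of Hipk2 (18) and Prkd3 (20), in log2 units, as the mean of 3 arrays minus the mean of 3 (blue CIR-1, orange CIR-2, green CIR-3; filled circles unstimulated, open triangles GFP-PFC). The dashed line is a difference of 1. Hipk2 keeps the order CIR-2, CIR-1, CIR-3 at all 18 probe sets, though the first (10544115) is not raised. Probe set 10544131 stays under the exon-level lower quartile in every group. Prkd3 has a stretch with rises of 2.13 to 4.14 in all 3 lines unstimulated (positions 2 to 8) and a second stretch (12 to 17) that is highest in CIR-3.

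Prkd3 did not rise evenly along its 20 probe sets, which are given in the order of their numbers (exon positions were not used here). Higher by 1 or more, unstimulated, were 11 in CIR-1 (0.58% of all exon-level probe sets), 10 in CIR-2 (0.644%) and 13 in CIR-3 (0.754%). The GFP-PFC counts were 10, 11 and 14, beside 0.579%, 0.616% and 0.625%. Some probe sets counted in CIR-1 and CIR-2 stayed under the exon-level quartile in those lines too. Among them, unstimulated, were 10453041 (5.79 and 5.60) and 10453028 (6.60 and 6.51). Such gains lie between levels not shown to exceed background. A run of 7 probe sets, positions 2 to 8 (10453028 to 10453034), was higher than in parental cells in all 3 CIR lines. A run of 6, positions 12 to 17 (10453038 to 10453043), was highest in CIR-3. Both runs were picked after their values were seen, so the contrast between them has no test.

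Over positions 2 to 8 the mean signal in unstimulated cells was 5.79 ± 0.23 (SD, n = 3) in parental cells. CIR-1 had 8.54 ± 0.06, CIR-2 had 8.31 ± 0.24 and CIR-3 had 8.91 ± 0.19. The differences from parental cells were 2.76, 2.52 and 3.12, and single probe sets ran from 2.13 to 4.14. Each of the 7 had all 3 arrays above the parental ones in each CIR line and in both conditions. Probe set 10453031 differed most, reading 5.30 in parental cells and 9.14 (CIR-1), 8.82 (CIR-2) and 9.44 (CIR-3). These differences exceeded the gene-level ones of 1.18, 1.04 and 1.68.

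Over positions 12 to 17 the mean was 5.53 ± 0.23 (SD, n = 3) in parental cells. CIR-1 had 6.59 ± 0.18, CIR-2 had 6.51 ± 0.17 and CIR-3 had 7.86 ± 0.24. The differences were 1.06, 0.98 and 2.34, so CIR-3 stood apart from CIR-1 and CIR-2 here by more than it did over positions 2 to 8. The CIR-1 and CIR-2 means lay under the exon-level quartile. Single probe sets differed by 0.14 to 1.57 in CIR-1, 0.50 to 1.62 in CIR-2 and 0.99 to 3.06 in CIR-3. Arrays of CIR-1 overlapped the parental ones at 10453038, and those of CIR-1 and CIR-2 did so at 10453040. No CIR-3 array (7.59 to 8.05) overlapped CIR-1 (6.44 to 6.78) or CIR-2 (6.31 to 6.60). At probe set 10453042 parental cells read 5.26, CIR-1 6.83, CIR-2 6.34 and CIR-3 8.32. The GFP-PFC arrays gave 1.24, 1.06 and 2.33 over positions 12 to 17 and 2.84, 2.40 and 3.04 over positions 2 to 8. With any 1 array of the compared groups left out, the unstimulated CIR-3 difference over positions 12 to 17 stayed between 2.23 and 2.47, and those of CIR-1 and CIR-2 between 0.87 and 1.18.

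Outside these runs the Prkd3 differences were smaller. Between the runs, probe sets 10453035 and 10453037 differed by 0.37 to 0.56 in unstimulated cells, and 10453036 was under the quartile in all groups. Position 1, 10453027, differed by 0.53 (CIR-1), 0.42 (CIR-2) and 0.66 (CIR-3) unstimulated and by 0.99, 1.14 and 1.12 with GFP-PFC, where its parental mean was 7.48 against 8.15 unstimulated. With GFP-PFC, 10453044 differed by 0.88, 0.85 and 0.44 with overlapping arrays, and 10453045 by 0.91, -0.03 and 1.04 from a parental level under the quartile. The brightest, 10453046, read 10.75 in parental cells and 10.58 (CIR-1), 10.69 (CIR-2) and 10.35 (CIR-3), with overlapping arrays. In unstimulated parental cells 5 of the 7 means in the first run and 5 of the 6 in the second, such as 4.15 at 10453028 and 4.32 at 10453041, lay under the exon-level quartile. Those differences are ratios of signal to a level not shown to exceed background.

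**Figure D3:**
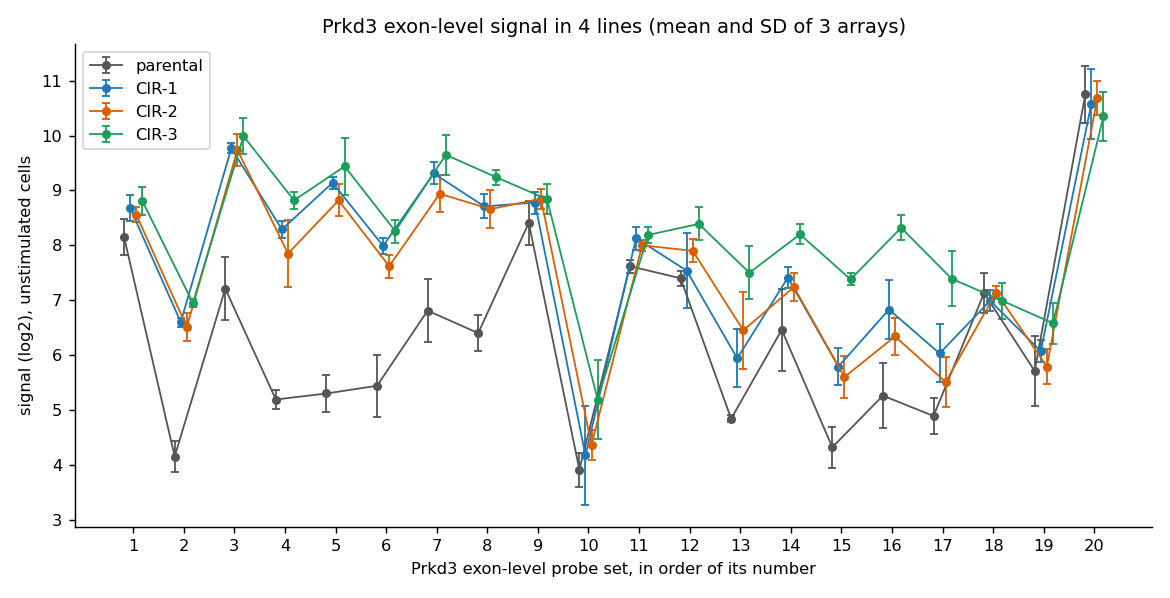
Exon-level log2 signal of Prkd3 in unstimulated cells at each of its 20 probe sets, in order of their numbers, for the 4 lines (points are means of 3 arrays, bars are SD, lines join points of 1 line). At positions 2 to 8 the 3 CIR lines run together above parental cells, at positions 12 to 17 CIR-3 (mean 7.86) runs above CIR-1 (6.59) and CIR-2 (6.51), and at position 20 all 4 lines lie between 10.35 and 10.75.

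The other members had hardly any such shifts at exon level. None of the 23 probe sets of Hipk1 and none of the 17 of Prkd2 differed by 1 or more from parental cells in any line or condition. Hipk3 had 1 of 17 in unstimulated CIR-2, at 1.15 and under the quartile in all groups. Prkd1 had 1 of 18 there, 10400177, at 1.13 and with arrays overlapping the parental ones. Its parental mean of 5.87 (SD 1.35) lay under the exon-level quartile. The 17 Hipk3 probe sets had medians of -0.01 (CIR-1), 0.01 (CIR-2) and 0.18 (CIR-3), and those of Hipk1 had medians of 0.16, 0.13 and 0.12. Of the 18 Prkd1 probe sets, 9 exceeded the exon-level quartile in at least 1 group.

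Stimulation was tested against unstimulated cells. The genes were selected on differences between lines, though with earlier results of these data known. None of the 6 genes passed the test after Hyper-IL-6 in parental cells (limma, Benjamini-Hochberg adjustment over 19938 genes, threshold 0.05), where 155 genes did (0.777%), 147 upward (0.737%) and 8 downward (0.0401%). The differences ran from 0.00 for Prkd3 to 0.16 for Prkd2, and their 95% confidence intervals lay within -0.28 and 0.42. A change of 1 in either direction was outside every interval. For Prkd1, whose gene-level signal was not shown to lie above background, the interval does not bound a change of transcript. The smallest adjusted p of the 6 was 0.956, shared by Hipk2 (0.14, interval -0.08 to 0.36) and Prkd2. This count became 1 under both of the following fits. With arrays weighted by their spread Prkd2 passed (0.31, limma adjusted p = 0.0474), and without the arrays numbered 1 and 2 Hipk3 passed (0.21, limma adjusted p = 0.0165), where 3466 and 3673 genes passed in all.

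GFP-PFC gave no call either. As the mean over the 4 lines, 0 of 6 members passed, where 44 genes did (0.221%), 37 upward (0.186%) and 7 downward (0.0351%), and 1257 had an unadjusted p under 0.05. Hipk2 and Prkd3, the genes that separated the lines, moved by 0.02 (SE 0.05, interval -0.09 to 0.13) and 0.03 (SE 0.07, interval -0.11 to 0.17). Hipk1 and Hipk3 moved by -0.01 and 0.01, and Prkd1 by 0.05.

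Prkd2 had the largest difference of the 6, 0.19 (SE 0.06, 95% confidence interval 0.06 to 0.31), and did not pass (limma adjusted p = 0.414). Pairing each GFP-PFC array with the unstimulated array of the preceding number, it was higher in 12 of 12 pairs. The share of all genes higher in every pair was not computed, so this count has no background beside it. The pair differences were 0.13, 0.35 and 0.38 in parental cells and 0.07, 0.32 and 0.23 in CIR-1. They were 0.16, 0.14 and 0.04 in CIR-2 and 0.15, 0.13 and 0.14 in CIR-3. With the array number as a block the limma adjusted p was 0.278, and with array weights it was 0.0195 at a difference of 0.24, a fit in which 1071 genes passed. As the median of its 17 exon-level probe sets the difference was 0.10 (limma adjusted p = 0.991). The other 5 genes were higher in 4 to 8 of 12 pairs.

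Within single lines 0 genes passed in parental, CIR-1, CIR-2 or CIR-3 cells (0% of 19938 in each), and 781, 491, 263 and 427 had an unadjusted limma p under 0.05. Prkd2 differed by 0.28, 0.21, 0.11 and 0.14 in those lines. In the parental line with array weights it passed (0.42, limma adjusted p = 0.0382), among 1002 genes. No gene passed the F-test for a GFP-PFC response that varied among the 4 lines (0%), with 188 at an unadjusted p under 0.05, and the limma adjusted p of all 6 members was 1.

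**Figure D4:**
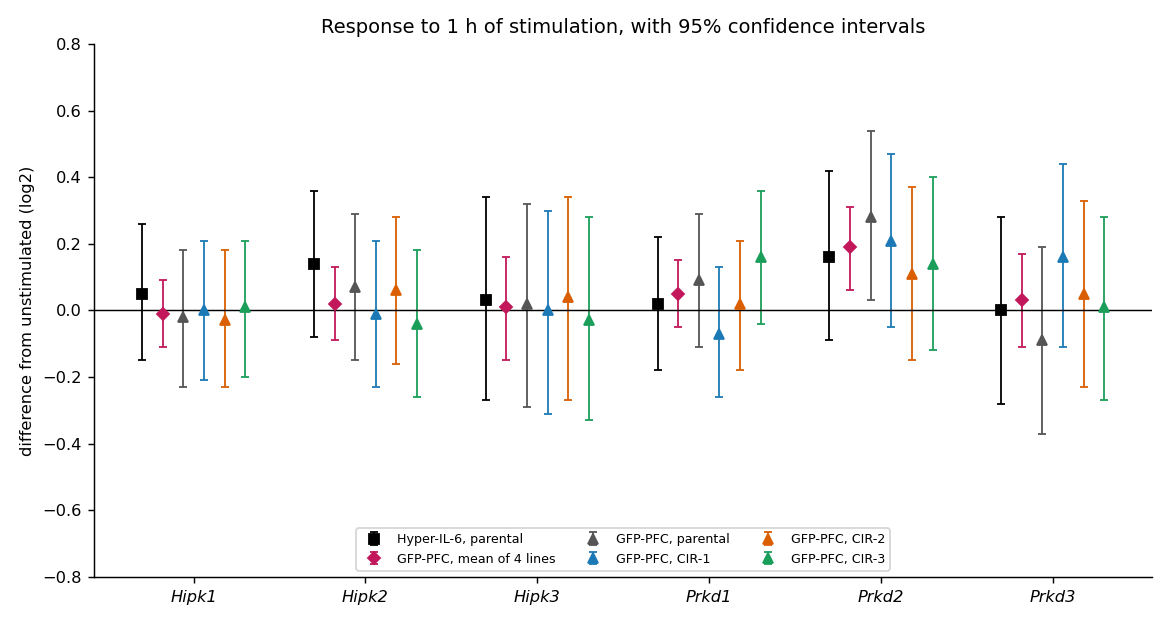
Difference from unstimulated cells after 1 h of Hyper-IL-6 (black squares, parental cells) or GFP-PFC (diamonds, mean of 4 lines; triangles, single lines) for the 6 kinase genes, in log2 units with 95% confidence intervals of the limma fit. All points lie between -0.09 and 0.28, and among the means over 4 lines only the Prkd2 interval (0.06 to 0.31) lies above 0 before adjustment.

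Genes around the HIPK family moved in small numbers. Of 34 listed HIPK partners and substrates 28 were measured, and 1 rose after Hyper-IL-6, 0 changed after GFP-PFC, 1 rose in CIR-1, 0 changed in CIR-2 and 1 fell in CIR-3. For all genes in the line comparisons, 1.14% were called upward and 0.587% downward in CIR-1, 0.888% and 0.321% in CIR-2, and 1.19% and 0.296% in CIR-3. Siah1b, a ubiquitin ligase of the group that targets Hipk2 protein, rose by 1.22 after Hyper-IL-6 (from 10.38 to 11.60, SE 0.15, limma adjusted p = 1.81e-05). Runx1, a blood transcription factor and HIPK substrate, fell by 1.08 in CIR-3 (from 10.67 to 9.59, SE 0.13, limma adjusted p = 8.75e-06). Sp100, a component of nuclear bodies, rose by 0.52 in CIR-1 (SE 0.13, limma adjusted p = 0.0296). The Sp100 call ended without parental unstimulated array 3 or 5 or CIR-1 unstimulated array 1 or 5 (adjusted p 0.101 to 0.243). The list medians over the 5 comparisons in that order were 0.06, 0.00, 0.04, -0.01 and 0.04, beside -0.01, -0.01, 0.00, -0.01 and -0.02 over all genes.

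Of 25 p53 target genes 23 were measured. After Hyper-IL-6 2 rose, Btg2, an antiproliferative gene, by 0.90 (limma adjusted p = 0.0232) and Fas, a death receptor, by 0.66 (limma adjusted p = 0.0342). Both calls were lost without parental unstimulated array 1 or 5 or Hyper-IL-6 array 4 or 6, and that of Fas also without parental unstimulated array 3 (adjusted p 0.0554 to 0.326). None changed after GFP-PFC or in CIR-3. In CIR-1, the line with the middle Hipk2 level, Eda2r, a receptor of the tumour necrosis factor receptor family, rose by 1.00 (limma adjusted p = 7.2e-05) and the sestrin Sesn1 by 0.54 (limma adjusted p = 0.0222). In CIR-2, with the highest Hipk2, Eda2r rose by 0.70 (limma adjusted p = 0.0059) and Zmat3, an RNA-binding protein, fell by 0.48 (limma adjusted p = 0.0062). Eda2r had a mean of 5.91 in parental cells, under the lower quartile. Single arrays ended the calls of Sesn1 (parental unstimulated 3 or 5, CIR-1 unstimulated 1 or 3; adjusted p 0.0803 to 0.205), of Zmat3 (parental unstimulated 3, CIR-2 unstimulated 5; 0.0514 and 0.0557) and of Eda2r in CIR-2 (parental unstimulated 5, CIR-2 unstimulated 3; 0.0521 and 0.0715). The medians of the list were -0.01, 0.00, 0.03, -0.06 and -0.08 in the same order of comparisons.

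In a list drawn up for genes upstream of protein kinase D, 25 of 28 phospholipase C, protein kinase C, diacylglycerol kinase and related genes were measured. None changed after Hyper-IL-6 or GFP-PFC, and 1 rose in each CIR line. Plcb4, a phospholipase C that forms diacylglycerol, rose by 2.53 in CIR-2 (from 6.09 to 8.62, SE 0.16, limma adjusted p = 2.9e-10), and its parental level was under the lower quartile. Rasgrp2, a calcium-responsive exchange factor listed among the related genes, rose by 0.46 in CIR-1 (limma adjusted p = 0.00593) and by 0.46 in CIR-3 (limma adjusted p = 0.00636). The first Rasgrp2 call ended without parental unstimulated array 3 or CIR-1 unstimulated array 3 (adjusted p 0.0581 and 0.0589) and the second without parental unstimulated array 3 or CIR-3 unstimulated array 3 (0.0668 and 0.0752). The medians of the list were 0.02, -0.01, 0.00, -0.04 and -0.02.

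Of 28 protein kinase D substrates and effectors 27 were measured, and 0 of them changed in any CIR line by the limma test. After Hyper-IL-6 2 rose, the transcription factor Mef2a by 0.30 (limma adjusted p = 0.0216) and the cofilin phosphatase Ssh1 by 0.28 (limma adjusted p = 0.0191), and none changed after GFP-PFC. Both calls ended without parental unstimulated array 3 or 5 or Hyper-IL-6 array 4 or 6 (adjusted p 0.0615 to 0.235). The medians of the list were 0.00, -0.01, 0.00, -0.01 and 0.02. The 3 CIR comparisons share the same 3 parental arrays.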

How the data were processed

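Per the labels' protocols, RNA of Ba/F3-gp130 cells was prepared with Ambion's WT Expression Kit for Affymetrix mouse arrays. The authors deposited 2 sets of values for each of the 27 arrays, at gene and at exon level, from Affymetrix Expression Console, per the labels. Neither its version nor the normalization or log base is given in the sources used here, and the deposited values were read as log2 because they ran from 2.97 to 14.86 at gene level and from 2.89 to 14.95 at exon level. The number of arrays limits the precision.

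Among 35556 probe sets at gene level, 21789 carried 1 symbol, 1621 several and 12146 none. The probe set with the highest mean stood for a gene, which gave 19938 genes, each member having 1 probe set. Of the 241576 exon-level probe sets, 212097 carried 1 symbol. The tables name no genome build, so probe sets have no coordinates here. Promoter stretches were taken from RefSeq for all 6 genes.

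All 27 arrays entered 1 linear model with a mean for every group (limma 3.58.1 in R 4.3.3, with data.table, version 1.17.8; 18 residual degrees of freedom), with two-sided moderated tests, Benjamini-Hochberg adjustment over 19938 genes and a threshold of 0.05. SE and 95% intervals come from this fit. It was run on simulated data with independent noise on each array, whereas deviations of the real arrays correlated by array number. That run checked mean estimates and calls, and did not check the SE or the intervals. All 6 members are named in each comparison, of each pathway list up to 4 genes under the threshold, and for members spanning 1 or more the 3 genes most like them. The members and the lists were chosen with earlier results of these data known.

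Array numbers were taken to pair unstimulated and GFP-PFC arrays, since deviations from group means correlated across genes in 12 of 12 consecutive pairs of a line (0.282 to 0.633), 18 of 18 same-numbered unstimulated pairs (0.137 to 0.763) and 18 of 18 same-numbered GFP-PFC pairs (0.211 to 0.615). They correlated negatively in 3 of 3 pairs of unstimulated parental and Hyper-IL-6 arrays (-0.463 to -0.201). Alternatives were a block of array numbers, the compared arrays only, array weights, quantile normalization, median centring, dropping dim genes, other rules for probe sets, exon-level medians, and leaving out arrays.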

Additional observations from a re-analysis of the deposited data

Results flagged for a closer look

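The GFP-PFC response of Hipk2 had opposite signs in CIR-2 and CIR-3. In CIR-2 all 3 GFP-PFC arrays exceeded the unstimulated array of the preceding number, with a mean difference of 0.06, and in CIR-3 all 3 were lower, with a mean of -0.04. The difference between these 2 lines was not tested on its own, the F-test over the 4 lines gave a limma adjusted p of 1, and both 95% confidence intervals included 0.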

How the results depend on the processing

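The block, the compared arrays only, dropping dim genes and the other gene-level rules for probe sets cannot change a retained member's difference. The Hipk2 and Prkd3 differences between lines kept their direction under every alternative run. Over all of them Hipk2 ranged from 1.36 to 1.58 in CIR-1, 2.28 to 2.49 in CIR-2 and 0.49 to 0.73 in CIR-3, and Prkd3 from 1.07 to 1.82, 0.95 to 1.59 and 1.59 to 2.30, all unstimulated, with the upper Prkd3 ends from exon-level medians. The number of members higher by 1 in CIR-2 fell from 2 to 1 with array weights and lay between 1 and 2 with 1 array left out. For Prkd1, exon-level medians reversed CIR-2 minus parental with GFP-PFC to -0.192. At a threshold of 0.5 the exon-level counts became 11 and 10 for Hipk2 in CIR-3 (unstimulated and GFP-PFC) and 16 for Prkd3 in CIR-1 with GFP-PFC, and with 1 array left out the Hipk2 count in CIR-3 with GFP-PFC lay between 1 and 2. Members called after stimulation went from 0 to 1 with array weights (Hyper-IL-6, GFP-PFC over 4 lines and GFP-PFC in parental cells) and to 1 without arrays numbered 1 and 2 (Hyper-IL-6), and stayed at 0 with any 1 array left out. The block of array numbers as a pairing left the 7 counts of called members at 0.

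Counts of called list genes moved more, and so did counts over all genes; the causes were not tested. In the order Hyper-IL-6, GFP-PFC over 4 lines and then each CIR line by its number, the 4 pathway lists together had 5, 0, 4, 3 and 2 calls. With the block as a pairing they had 9, 2, 8, 8 and 2 (all genes 326, 151, 701, 493 and 657), and with the block but no Hyper-IL-6 arrays, an alternative added after the data were seen, 4, 8, 8 and 6 for the last 4 (262, 961, 675 and 1101). Array weights gave 25, 5, 8, 11 and 18 (3466, 1071, 575, 941 and 3799). Leaving out arrays numbered 1 and 2 gave 23, 5, 8, 9 and 18 (3673 after Hyper-IL-6, 943 after GFP-PFC, 622 in CIR-2 and 3230 in CIR-3). Fits to the compared arrays alone gave 1 in each (31, 56, 70 and 79 genes, GFP-PFC aside). Exon-level medians gave 2 after Hyper-IL-6 and 1 in CIR-1 and in CIR-3 (93, 216 and 191 genes, with 25 after GFP-PFC), and single probe sets gave 3 after Hyper-IL-6 and 2 in CIR-1. With 1 array left out the ranges were 1 to 6, 0 to 1, 2 to 6, 2 to 7 and 1 to 9, and for the line comparisons the highest came without parental unstimulated array 1. Counts over all genes were not recorded with 1 array left out. Under the other fits, GFP-PFC within single lines had at most 19 called genes, apart from parental cells with array weights (1002) and without arrays numbered 1 and 2 (87). Counts aside, 1619 values were computed under the alternatives, of which 1414 kept their sign and also their call or, where there was no test, moved by less than the spread between replicates. Another 134 values that carried no call changed sign. Among tested values, 55 lost their call and 4 gained one. The kept values include those from alternatives that could not change a member's difference, so their number does not measure robustness.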
